A study of Homo sapiens with 26 samples.

Results

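TMPRSS2 RNA differed 464-fold between the highest and the lowest of 14 single cell-derived cell lines (SCDCLs) that express SMAD4, and the 5 highest of these SCDCLs were compared here with the 5 lowest over all other genes. The members were chosen by measured values. Of the 26 libraries of the series, the 14 with at least 1 TPM (a measure of RNA level that accounts for transcript length) of SMAD4 were ranked by the TPM of TMPRSS2, and the 5 highest and 5 lowest make up the 10 libraries compared. Each library is the polyadenylated RNA of 1 SCDCL, grown from a single cell of the pancreatic ductal adenocarcinoma lines BxPC3 or Panc-1 in DMEM with serum, and no SCDCL has a replicate library, so p-values measure the spread between SCDCLs. Every library carries a gemcitabine treatment label, but the methods use the drug in viability assays, apart from sequencing. No library was tied to a gemcitabine response here.

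The 5 highest libraries are 3 labelled Panc1 and 2 labelled BxPC3, and the 5 lowest are 2 labelled Panc1 and 3 labelled BxPC3. Panc-1 is known to carry intact SMAD4 and BxPC3 a homozygous deletion of it. The 14 libraries held 28.1 to 52.2 TPM of SMAD4, and the other 12 libraries, of both labels too, at most 0.044 TPM. In the 14 libraries CDH1, the E-cadherin of epithelial cells, lay between 0.338 and 7.74 TPM, and in the 12 SMAD4-null libraries between 90.8 and 197.7 TPM. For 7 of the 14 libraries, those labelled BxPC3, the label therefore goes against SMAD4, and all are called here only "labelled" BxPC3 or Panc1. Totals of the 14 libraries ran from 27035724 to 32601392 estimated counts, and 15976 to 16661 genes had at least 5 counts.

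TMPRSS2 is a serine protease anchored in the plasma membrane of epithelial cells of the prostate, gut, airway and pancreas. It is made as an inactive precursor, cleaves cell surface and secreted proteins such as protease-activated receptor 2, and primes the spike and hemagglutinin proteins of respiratory viruses. Kunitz-type inhibitors in the same membrane, the products of SPINT1 and SPINT2, hold proteases of this class in check.

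The TMPRSS2 gene lies on the minus strand at chr21:41464300-41531116 (GRCh38). In the 5 highest libraries it stood at 133 TPM (Panc1 14), 75.7 TPM (Panc1 8), 63.4 TPM (BxPC3 20), 47.5 TPM (BxPC3 17) and 45.5 TPM (Panc1 13). The 4 libraries between the groups held 40.7 TPM (Panc1 10), 32.9 TPM (BxPC3 19), 30.4 TPM (Panc1 12) and 19.7 TPM (BxPC3 15). In the 5 lowest it stood at 13.004 TPM (Panc1 9), 12.6 TPM (Panc1 11), 3.18 TPM (BxPC3 22), 1.40 TPM (BxPC3 23) and 0.286 TPM (BxPC3 18), and BxPC3 18 had 16.3 estimated counts of the gene. The levels form a slope without a wide gap at either boundary, as the last library inside the upper group was 1.12-fold above the first outside it, and the first library outside the lower group was 1.52-fold above the last inside it. The means were 73.0 ± 35.7 TPM (SD, n = 5) and 6.10 ± 6.22 TPM (SD, n = 5), 11.98-fold apart, which the ranking itself produced. All 12 SMAD4-null libraries were listed at 0 TPM of TMPRSS2. SMAD4 did not order the libraries in the same way, with 29.0 to 52.2 TPM in the 5 highest and 28.7 to 39.4 TPM in the 5 lowest.

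**Figure D1:**
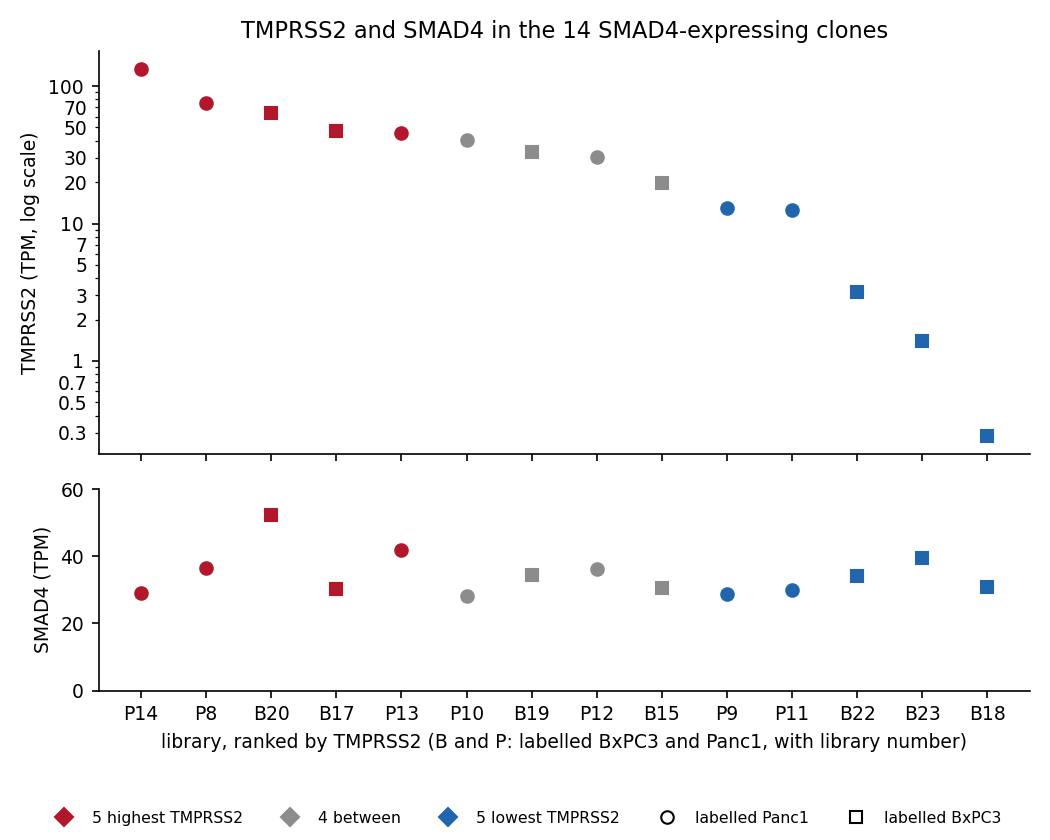
TMPRSS2 (upper panel, TPM on a log axis) and SMAD4 (lower panel, TPM) in each of the 14 SMAD4-expressing libraries, ranked by TMPRSS2. Each point is 1 library, with color for its place in the ranking and shape for its label. TMPRSS2 runs from 133 to 0.286 TPM while SMAD4 stays between 28.1 and 52.2 TPM.

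Of 15259 genes tested with edgeR's quasi-likelihood test, 5 passed an adjusted p of 0.05 (Benjamini-Hochberg over all genes tested), which is 0.0328% of them. All 5 were higher in the TMPRSS2-high libraries, and 0 were lower. RGPD6, SLC6A6, STOM and TMEM135 are described here. At an unadjusted p under 0.05, 817 genes (5.35%) were higher and 796 (5.22%) were lower. The TPM of the groups did not overlap for 199 genes higher (1.3%) and 107 genes lower (0.701%) in the TMPRSS2-high libraries. The unadjusted shares are the background for every list below. How many genes passed depended on the test, since DESeq2 called 164 genes, 101 higher and 63 lower, among them all 5 of edgeR's.
RGPD6 had the smallest p of the 5. It belongs to a family of near-identical copies derived from RANBP2, a nuclear pore protein, and lies at chr2:110513802-110610840. In the order of TMPRSS2 given above, it stood at 35.3, 46.8, 28.8, 27.5 and 25.8 TPM in the 5 highest libraries and at 7.07, 6.03, 10.2, 8.84 and 10.2 TPM in the 5 lowest. The 4 between held 16.1 to 22.9 TPM and fell into the gap that both groups left. Its log2 fold change was 1.93 ± 0.21 (SE), with an edgeR adjusted p of 0.0198. How reads are shared among such copies is uncertain: the paralogs RGPD5 and RGPD8, looked up after RGPD6 was seen, had log2 fold changes of 0.03 ± 0.20 (SE) and 0.33 ± 0.14 (SE).

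SLC6A6 encodes the taurine transporter of the plasma membrane and lies at chr3:14402576-14489349. It stood at 79.5, 61.0, 84.9, 91.6 and 68.8 TPM in the 5 highest libraries and at 31.4, 33.7, 45.5, 40.2 and 33.1 TPM in the 5 lowest. The groups were separate, and the 4 between, with 40.5 to 56.7 TPM, reached into the range of the lower group only. Its log2 fold change was 1.04 ± 0.14 (SE), with an edgeR adjusted p of 0.0421.

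STOM encodes stomatin, a membrane protein of lipid rafts, at chr9:121338987-121370304. It stood at 111, 81.0, 91.3, 96.7 and 100.4 TPM in the 5 highest libraries and at 58.5, 41.4, 42.4, 51.4 and 41.4 TPM in the 5 lowest. BxPC3 19 and Panc1 12, which lie between the groups in TMPRSS2, were the highest of all in STOM, with up to 188 TPM, so the order over all 14 libraries was less regular (Spearman's rho 0.71). TMEM135, a membrane protein of peroxisomes and mitochondria, lies at chr11:87037844-87328824 and stood at 68.4, 57.8, 56.3, 60.9 and 64.9 TPM against 30.4, 40.8, 28.8, 33.0 and 28.1 TPM. Neither gene overlapped between the groups. Their log2 fold changes were 0.99 ± 0.14 (SE) and 0.90 ± 0.12 (SE), each with an edgeR adjusted p of 0.0421.

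**Figure D2:**
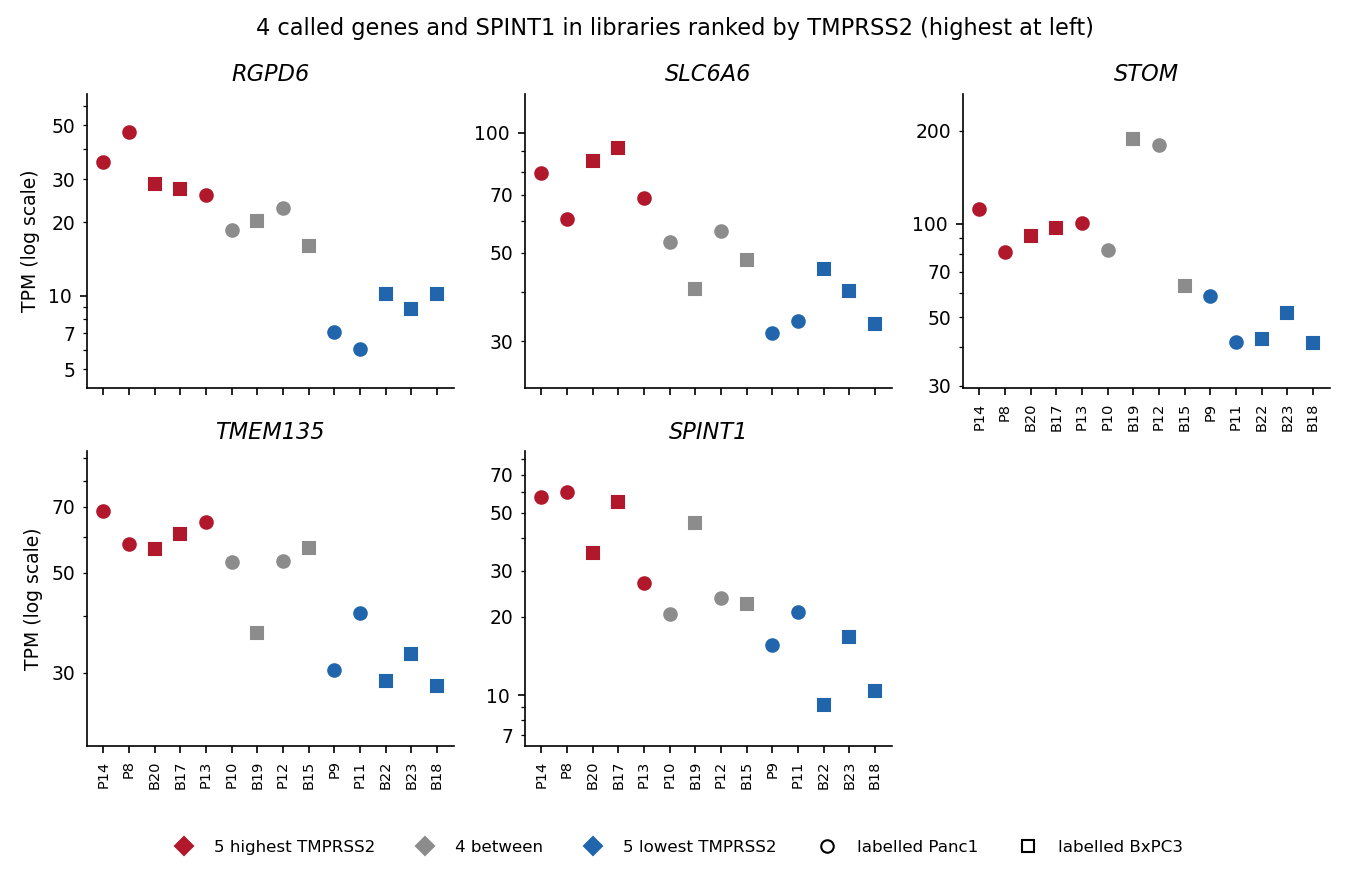
TPM (log axis, a scale of its own in each panel) of 4 called genes and of SPINT1 in the 14 libraries, ranked by TMPRSS2 from the highest at the left. In every panel the 5 highest libraries lie above the 5 lowest, and in STOM 2 of the libraries between lie above both groups.

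The 5 calls rested on the full set of libraries. Leaving out any 1 of the 10 left 0 to 4 calls, with 0 left without Panc1 14, BxPC3 20, BxPC3 17, BxPC3 22 or BxPC3 23, and 1, RGPD6, without Panc1 8 or BxPC3 18. Without Panc1 13 RGPD6 passed with 1 other gene, without Panc1 9 RGPD6 and STOM did, together with TRIM2, and without Panc1 11 RGPD6 and TMEM135 did, together with SCARB1 and SLC29A2. With the label as a covariate RGPD6, SLC6A6 and TMEM135 passed. The difference between high and low libraries was also compared between the labels in an interaction term, where 0 genes passed (smallest adjusted p 0.167 with edgeR) and 639 had an unadjusted p under 0.05.

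With edgeR no gene passed in the direction of lower expression (796 at an unadjusted p under 0.05), and the genes with the smallest p there are given as not called by it. DESeq2 called 63 genes lower, SLC16A14 and IDS among them, and limma-trend on log2(TPM + 1) called 1, SLC16A14. SLC16A14, a monocarboxylate transporter family member, stood at 1.21, 0.244, 0.600, 0.974 and 1.48 TPM in the TMPRSS2-high libraries and at 6.21, 5.64, 4.75, 7.997 and 3.08 TPM in the TMPRSS2-low libraries. The groups did not overlap, and the log2 fold change was -2.66 ± 0.43 (SE), with an edgeR adjusted p of 0.0909. Those of the next 4, MMP24 (a membrane-anchored matrix metalloprotease), S100A16 (a calcium-binding protein), SNCG (gamma-synuclein) and IDS (the lysosomal enzyme iduronate 2-sulfatase), were -1.61, -1.12, -2.50 and -1.06, with edgeR adjusted p-values of 0.146 to 0.221. None of these 4 overlapped between the groups. IDS, the most abundant of them, stood at 48.0 to 85.5 TPM against 86.0 to 175 TPM, so that Panc1 14 and Panc1 9 met almost at the boundary.

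Over all 14 libraries no gene correlated with TMPRSS2 at an adjusted permutation p under 0.05 (0.0% positive and 0.0% negative), out of the same 15259 genes, and 1719 had an unadjusted permutation p under 0.05. The permutation p cannot go below 1e-05 with the number of permutations drawn, and 1 gene alone at that floor cannot pass over 15259 genes. The absence of calls therefore does not show that no gene was correlated. The 14 libraries include the 10 compared above, so the correlation is no independent check of that comparison. The strongest positive Spearman's rho, of log2(TPM + 1) over 14 libraries, belonged to VSIR, an immune checkpoint protein (0.92), ABCA13, a large lipid transporter (0.91), RGPD6 (0.91), SLC29A3, a lysosomal nucleoside transporter (0.91), and TMEM131L (0.90). Their Pearson's r was 0.94, 0.84, 0.79, 0.77 and 0.83, and the adjusted permutation p of rho lay between 0.0763 and 0.0890. With the 2 libraries farthest from the median of TMPRSS2 in TPM left out, Panc1 14 and Panc1 8, r was 0.92, 0.84, 0.73, 0.73 and 0.85. Both are at the high end. The lowest libraries, BxPC3 18 and BxPC3 23, lie farther from the median on the log2 scale of r and stayed in. Leaving out these 2 therefore cannot show whether r rested on the lowest libraries.

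VSIR stood at 22.3, 20.97, 20.5, 24.1 and 14.2 TPM in the 5 highest libraries and at 14.6, 12.5, 10.5, 7.25 and 7.63 TPM in the 5 lowest. Only Panc1 13 and Panc1 9 overlapped, and VSIR was listed at 0 TPM in all 12 SMAD4-null libraries, as TMPRSS2 was. That is not particular to VSIR and TMPRSS2. RIPK4 and ZBTB21, which lie near TMPRSS2, were also listed at 0 TPM there, and C2CD2 and PRDM15 at no more than 0.0411 and 0.0676 TPM. Other genes near it were expressed there, with at least 3.32 TPM of MX2 and 15.6 TPM of BACE2. VSIR and SLC29A3 are near each other, at chr10:71747556-71773520 and chr10:71319259-71381423. ABCA13 held 3.08, 2.74, 5.63, 4.94 and 1.83 TPM against 0.835, 1.48, 0.507, 0.357 and 0.517 TPM, without overlap.

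The strongest negative rho belonged to LSM10, a protein of the histone pre-mRNA processing complex (-0.93), AMIGO2, an adhesion protein (-0.91), NSMCE1, a subunit of the SMC5/6 complex (-0.91), BCL7C, a chromatin remodeling subunit (-0.89), and the ribosomal protein gene RPL13 (-0.88). Their Pearson's r was -0.90, -0.76, -0.85, -0.80 and -0.82, with adjusted permutation p-values of rho from 0.0763 to 0.0898. Without the same 2 libraries, Panc1 14 and Panc1 8, r was -0.90, -0.69, -0.81, -0.76 and -0.82. AMIGO2 differed most, from 6.12, 4.87, 11.5, 11.7 and 1.65 TPM in the TMPRSS2-high libraries to 22.2, 23.3, 30.9, 32.4 and 36.5 TPM in the TMPRSS2-low ones. LSM10 spanned a narrow range, with 52.0 to 61.1 TPM against 64.3 to 87.1 TPM. With the rank of TMPRSS2 as a linear term over the 14 libraries, edgeR called 8 genes (RGPD6, SPINT1, VSIR, ABCA13 and TMEM131L among them, and AREG), and with log2(TPM + 1) of TMPRSS2 as the term it called 73.

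No neighbor of TMPRSS2 passed the test with edgeR. Of 16 listed genes around it on chromosome 21, 9 were tested, 0 had an unadjusted p under 0.05, and the median log2 fold change was 0.12, against -0.02 over all genes tested. MX2, an interferon-induced GTPase at chr21:41361999-41409393, stood at 52.2, 56.8, 41.6, 45.2 and 56.5 TPM in the TMPRSS2-high libraries and at 59.8, 20.4, 28.8, 27.0 and 11.5 TPM in the TMPRSS2-low ones. Panc1 9 was the highest of all 10, so the groups overlapped, and the log2 fold change was 0.72 ± 0.36 (SE), with an unadjusted edgeR p of 0.0696. BACE2, a protease gene on the same side of TMPRSS2 as MX2, differed by 0.02 ± 0.78 (SE). On the other side RIPK4, a kinase of epithelial differentiation, differed by 0.32 ± 0.19 (SE). BACE2 itself varied between 1.57 and 48.8 TPM among the TMPRSS2-low libraries alone.

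Of 24 other membrane-anchored serine protease genes, 6 were tested and 0 had an unadjusted p under 0.05. PRSS22, the most abundant, stood at 11.6 to 29.2 TPM in the TMPRSS2-high and 12.9 to 27.2 TPM in the TMPRSS2-low libraries. TMPRSS5 held 1.78, 4.47, 3.70, 0.747 and 3.61 TPM against 1.49, 0.638, 3.003, 0.761 and 0.296 TPM, with an overlap and a log2 fold change of 1.15 ± 0.63 (SE). ST14, which encodes matriptase, did not exceed 1.495 TPM in any of the 14 libraries. TMPRSS3 and TMPRSS4 stayed at or below 0.156 TPM.

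Among 17 protease inhibitor genes, 7 were tested, of which SPINT1 was higher (14.3%) and SERPINA3 lower (14.3%) at an unadjusted p under 0.05. SPINT1, which encodes hepatocyte growth factor activator inhibitor 1 at chr15:40844018-40858207, stood at 57.6, 60.2, 34.9, 55.0 and 27.0 TPM in the TMPRSS2-high libraries and at 15.6, 20.8, 9.13, 16.7 and 10.3 TPM in the TMPRSS2-low ones. The groups did not overlap, although Panc1 13 lay close to Panc1 11. The log2 fold change was 1.67 ± 0.28 (SE), with an edgeR adjusted p of 0.117. Over the 14 libraries its rho with TMPRSS2 was 0.89 and its r 0.85, with adjusted permutation p-values of 0.0890 and 0.0528. Without Panc1 14 and Panc1 8, the 2 farthest from the median of TMPRSS2 in TPM, r was 0.80. SPINT2, the second Kunitz inhibitor of this class, was far more abundant, with 1349 to 1720 TPM against 649.7 to 1505 TPM, and differed by 0.34 ± 0.19 (SE). SERPINA3, a secreted serine protease inhibitor, differed by -1.63 ± 0.54 (SE), at means of 0.707 and 2.16 TPM.

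Of 25 genes for substrates of TMPRSS2 and partners in viral entry, 21 were tested, with SCNN1A and BSG higher (9.52%) and PLAUR lower (4.76%) at an unadjusted p under 0.05. SCNN1A, a subunit of the epithelial sodium channel, differed by 1.08 ± 0.46 (SE), BSG, the membrane glycoprotein basigin, by 0.26 ± 0.11 (SE), and PLAUR, the urokinase receptor, by -1.12 ± 0.41 (SE). F2RL1, which encodes protease-activated receptor 2, lay between 121 and 544 TPM and had an unadjusted edgeR p of 0.117.
Of 17 tested epithelial transcription factor genes, 3 (17.6%) were higher and KLF4 (5.88%) was lower at an unadjusted p under 0.05. CDX2, the intestinal homeobox factor, stood at 3.06, 3.79, 1.28, 4.91 and 2.84 TPM in the TMPRSS2-high libraries and at 0.947, 0.0362, 0.871, 0.331 and 0.117 TPM in the TMPRSS2-low ones. The groups did not overlap, and the log2 fold change was 2.73 ± 0.72 (SE), with an edgeR adjusted p of 0.299. PDX1, which specifies pancreas, differed by 1.84 ± 0.69 (SE) and GATA4 by 0.43 ± 0.18 (SE). FOXA1, a pioneer transcription factor of endoderm counted outside these 17, stood at 1.75, 2.28, 4.69, 3.38 and 1.32 TPM against 0.179, 0.849, 0.265, 1.42 and 0.392 TPM. Panc1 13 lay below BxPC3 23, and the log2 fold change was 2.12 ± 0.56 (SE), with an edgeR adjusted p of 0.300. CDX2 and PDX1 lie close together, at chr13:27960918-27969315 and chr13:27920000-27926313.

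Of 34 tested epithelial junction and identity genes, 7 (20.6%) were higher, 3 (8.82%) were lower, and the median log2 fold change was 0.34. The 7 were EPCAM, CLDN7, OCLN, CGN, ESRP2, PATJ and LLGL2, and the 3 were CLDN1, PKP2 and PKP3. OCLN, which encodes the tight junction protein occludin, stood at 47.4, 37.5, 61.2, 57.9 and 48.4 TPM against 31.8, 13.6, 22.5, 39.8 and 20.1 TPM, with an overlap between Panc1 8 and BxPC3 23 and a log2 fold change of 0.95 ± 0.26 (SE). ESRP2, an epithelial splicing regulator, was at 15.8 to 21.8 TPM against 11.4 to 16.2 TPM and differed by 0.57 ± 0.14 (SE). CDH1 differed by 0.90 ± 0.75 (SE), with an unadjusted edgeR p of 0.252 and only 0.338 TPM in Panc1 13. None of the 34 passed the adjusted threshold with edgeR.

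Mesenchymal genes divided, with 4 of 31 tested higher (12.9%), 2 lower (6.45%) and a median log2 fold change of 0.02. VIM, the intermediate filament vimentin, stood at 3047, 3171, 3459, 3157 and 3790 TPM in the TMPRSS2-high libraries and at 4306, 3645, 3553, 4526 and 4380 TPM in the TMPRSS2-low ones. Panc1 13 overlapped with 2 of the lower group, and the log2 fold change was -0.33 ± 0.13 (SE), with an edgeR adjusted p of 0.427. COL1A1, a collagen chain, differed by -1.32 ± 0.50 (SE). LOXL2, a collagen crosslinking enzyme, was higher without overlap, at 121 to 257 TPM against 78.1 to 105 TPM, and differed by 0.73 ± 0.20 (SE). The adhesion gene L1CAM differed by 0.91 ± 0.32 (SE) and CCN1, a matrix signaling protein, by 0.78 ± 0.33 (SE). CDH11 rested on 1 library, Panc1 13, with 34.7 TPM where the other 4 of the upper group held 0.322 to 4.41 TPM.

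Of the lists tested, cholesterol synthesis and uptake held the highest share of genes higher in the TMPRSS2-high libraries. The pathway makes cholesterol from acetyl-CoA through squalene and lanosterol, and its genes share control by the factor SREBP2, which acts with the CCAAT-binding factor NF-Y at their promoters. Of 23 tested members, 11 (47.8%) were higher and 0 lower at an unadjusted p under 0.05, 22 had a positive log2 fold change, and the median was 0.44. The summed TPM of the list was 2574 to 3498 in the TMPRSS2-high and 1432 to 2722 in the TMPRSS2-low libraries. None passed the adjusted threshold with edgeR, while DESeq2 called STARD4 and DHCR7. The emphasis on this list was chosen after its values were seen.

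The promoters of 3 members are printed because 22 of the 23 members had a positive value. These 3 were picked among members whose window holds a CCAAT box on 1 or both strands. They are the 250 bases before the annotated start, 5′ to 3′ on the strand of the gene, from RefSeq (GRCh38.p14), with CCAAT and its reverse complement ATTGG in capitals. STARD4 is at chr5:111512536-111512785 (minus strand), DHCR7 at chr11:71448394-71448643 (minus strand) and LSS at chr21:46228775-46229024 (minus strand).
STARD4: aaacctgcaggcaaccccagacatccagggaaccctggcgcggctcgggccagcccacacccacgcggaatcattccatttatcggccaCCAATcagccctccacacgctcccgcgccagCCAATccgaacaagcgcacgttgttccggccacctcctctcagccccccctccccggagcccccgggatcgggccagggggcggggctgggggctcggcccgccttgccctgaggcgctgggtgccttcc
DHCR7: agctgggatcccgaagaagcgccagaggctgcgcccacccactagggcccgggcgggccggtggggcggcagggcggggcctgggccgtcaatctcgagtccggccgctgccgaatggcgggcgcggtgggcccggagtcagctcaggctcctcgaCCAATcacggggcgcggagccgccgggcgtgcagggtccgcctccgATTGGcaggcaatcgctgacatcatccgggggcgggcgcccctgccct
LSS: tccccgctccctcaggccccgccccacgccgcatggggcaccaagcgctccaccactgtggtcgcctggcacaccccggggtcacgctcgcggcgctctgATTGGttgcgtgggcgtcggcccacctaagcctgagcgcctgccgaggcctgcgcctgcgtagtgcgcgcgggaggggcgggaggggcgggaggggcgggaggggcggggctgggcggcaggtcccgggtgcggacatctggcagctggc
Searched on both strands, CCAAT occurred in 18 of 23 windows of the list (78.3%), which cover 18 genes. It occurred in 32.0% of all 35116 windows of the same length, which cover 27305 genes, expressed here or not. A match describes the letters only, and these shares do not depend on TMPRSS2.

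STARD4, a cytosolic carrier of cholesterol, had the largest difference of the list. It stood at 23.1, 33.3, 24.98, 21.9 and 56.5 TPM in the TMPRSS2-high libraries and at 8.18, 7.55, 1.34, 13.4 and 9.05 TPM in the TMPRSS2-low ones. Panc1 13 was the highest and BxPC3 22 the lowest, with no overlap. The log2 fold change was 1.98 ± 0.47 (SE), with an edgeR adjusted p of 0.260. DHCR7, the last enzyme of the pathway, stood at 352, 297, 350.1, 299 and 418 TPM against 154, 207, 81.4, 165 and 148 TPM, also with Panc1 13 highest, BxPC3 22 lowest and no overlap. Its log2 fold change was 1.14 ± 0.21 (SE), with an edgeR adjusted p of 0.149.

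The sterol reductase gene TM7SF2 stood at 66.9, 77.3, 59.7, 65.8 and 145 TPM against 31.7, 61.9, 9.06, 65.5 and 22.5 TPM, with an overlap and a log2 fold change of 1.10 ± 0.45 (SE). LSS, which encodes lanosterol synthase, differed by 0.63 ± 0.21 (SE). FDFT1, NSDHL, EBP and SC5D differed by 0.42 to 0.58. Only PMVK, phosphomevalonate kinase, had a negative value, -0.24 ± 0.12 (SE). The fatty acid synthesis genes FASN and ACACA, looked up after the cholesterol list was seen, differed by 0.84 ± 0.17 (SE) and 0.56 ± 0.12 (SE), without overlap between the groups.

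**Figure D3:**
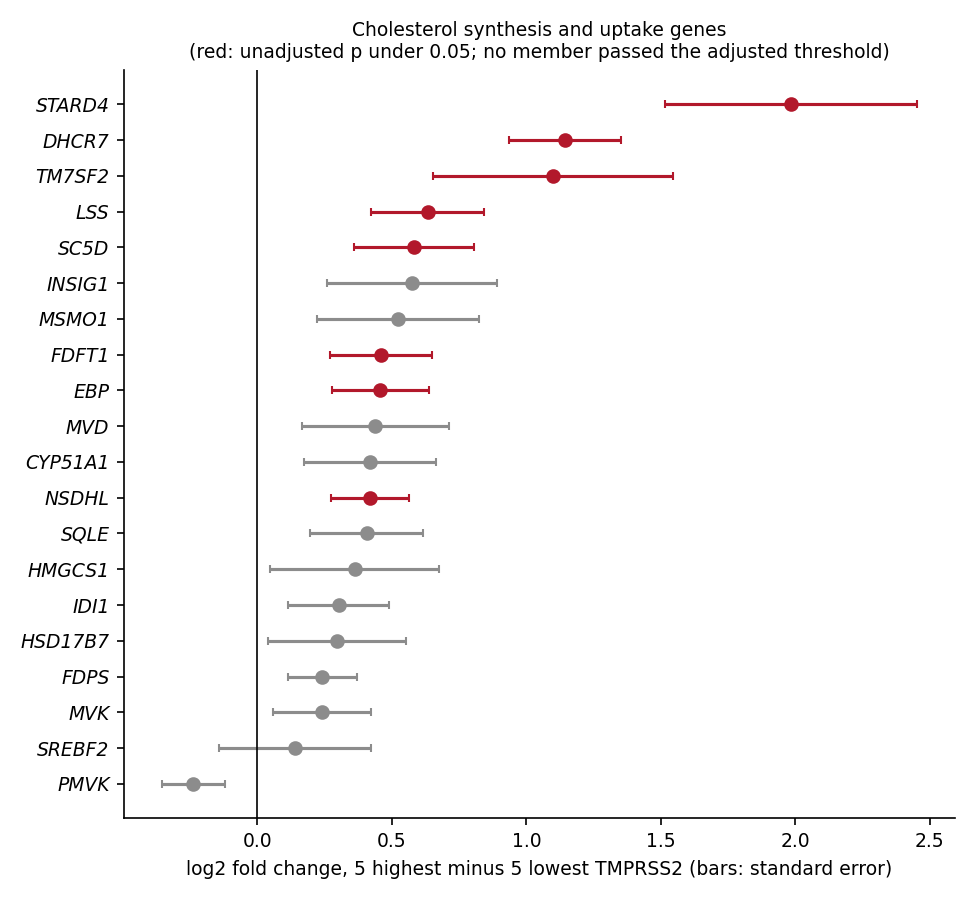
Log2 fold change between the 5 highest and the 5 lowest TMPRSS2 libraries for 20 of the 23 tested cholesterol genes, with standard errors as bars and red for an unadjusted p under 0.05. Of the genes shown only PMVK lies below 0, and STARD4 lies farthest above it at 1.98.

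The count of 11 moved with the libraries used. It was 7 without Panc1 13 and 8 without BxPC3 20, Panc1 9 or BxPC3 22. With 4 against 4 libraries it was 4, with 3 against 3 it was 3, and with the rank of TMPRSS2 as a linear term it was 7. A few libraries stood far from the others in this list. The median over the list of each member's log2 difference from the median of the 14 libraries was 0.36 in Panc1 13, -0.63 in Panc1 9 and -0.88 in BxPC3 22, whereas in Panc1 14, the library with the most TMPRSS2, it was -0.12.

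Chromosome 11 held the highest share of higher genes of all chromosomes. Of 810 genes tested there, 125 (15.4%) were higher and 18 (2.22%) lower at an unadjusted p under 0.05, against 4.86% and 5.36% on all chromosomes other than 11 and 22. The stretch from 60 Mb onward on the long arm held 108 of 523 higher (20.7%), with a median log2 fold change of 0.24, and the first 50 Mb 16 of 258 (6.2%). TMEM135, SLC29A2 and the cholesterol genes DHCR7, TM7SF2 and SC5D lie in the long-arm stretch. Its members on other chromosomes gave 8 of the higher genes of the cholesterol list in the same fit. The part of chromosome 11 in the count of that list was not tested. The chromosomes were compared after the genes' values were seen.

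The lowest levels over this stretch were in TMPRSS2-low libraries. Over 390 genes of the stretch with a mean of at least 5 TPM, the median log2 difference from the median of the 14 libraries was 0.01 to 0.09 in the TMPRSS2-high libraries. In the TMPRSS2-low libraries it was -0.67 in BxPC3 18, -0.26 in Panc1 11, -0.18 in BxPC3 22, -0.06 in BxPC3 23 and -0.03 in Panc1 9. The 4 libraries between lay from 0.02 to 0.21, with Panc1 10 the highest of all 14. BxPC3 18 was also low over the first 50 Mb, at -0.35. Leaving out BxPC3 18 took the count of higher genes on chromosome 11 from 125 to 77, and leaving out Panc1 9 raised it to 187. On chromosome 22, 46 of 360 genes (12.8%) were lower, and there BxPC3 23 stood at 0.43 while the other 9 compared libraries lay between -0.18 and 0.03. DNA was not measured, and the part of gene copy number in these differences was not tested.

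**Figure D4:**
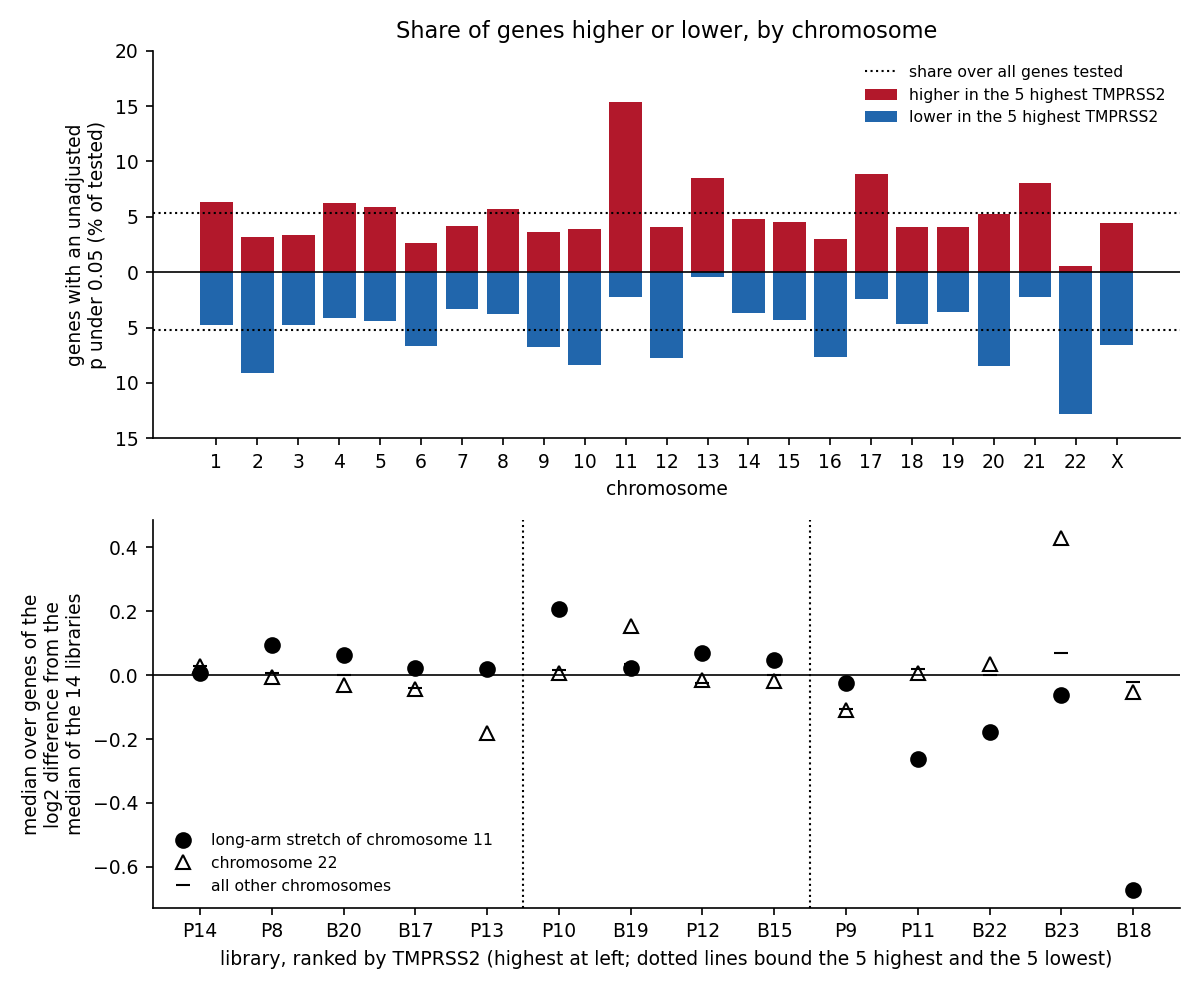
Upper panel, share of tested genes with an unadjusted p under 0.05 by chromosome, higher above and lower below the line at 0, with the shares over all genes dotted. Lower panel, median log2 difference from the median of the 14 libraries, over genes, for the long-arm stretch of chromosome 11, chromosome 22 and all chromosomes other than these. Chromosome 11 stands at 15.4% higher, and BxPC3 18 (B18) at -0.67 in its stretch.

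Among 18 tested genes of gemcitabine transport and metabolism, 1 was higher (5.56%) and 1 lower (5.56%) at an unadjusted p under 0.05. These shares are close to those over all genes tested, 5.35% and 5.22%, and 13 of the 18 had a negative log2 fold change. SLC29A2, an equilibrative nucleoside transporter that carries gemcitabine, stood at 30.4, 27.9, 38.3, 31.2 and 33.9 TPM in the TMPRSS2-high libraries and at 15.9, 20.5, 11.9, 15.3 and 14.6 TPM in the TMPRSS2-low ones. The groups were apart, and the log2 fold change was 1.01 ± 0.15 (SE), with an edgeR adjusted p of 0.0735. RRM2, a subunit of ribonucleotide reductase, which makes deoxyribonucleotides, differed by -0.58 ± 0.20 (SE), with overlapping groups. The main transporter SLC29A1 differed by 0.33 ± 0.20 (SE) and the activating kinase DCK by -0.25 ± 0.14 (SE), both at an unadjusted edgeR p above 0.05.

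Log2 fold changes of proliferation genes were mostly negative. Of 30 S phase genes, 29 had a negative log2 fold change, 5 (16.7%) were lower and 0 higher at an unadjusted p under 0.05, and the median was -0.26. Of 30 G2M phase genes, 29 were negative, 3 (10.0%) were lower and 0 higher, and the median was -0.23. UBE2C, which drives exit from mitosis, stood at 217, 245, 292, 267 and 262 TPM in the TMPRSS2-high libraries and at 361, 227, 391, 408 and 427 TPM in the TMPRSS2-low ones, where only Panc1 11 lay within the upper group's range. MKI67 differed by -0.28 ± 0.31 (SE). The libraries did not follow the groups evenly, as the median difference over the S phase list was -0.43 in Panc1 14 and -0.33 in Panc1 13, 0.26 in BxPC3 20, 0.58 in BxPC3 22 and -0.29 in BxPC3 18. Of 30 MYC target genes 1 was higher (3.33%) and 1 lower (3.33%), and MYC itself differed by -0.08 ± 0.15 (SE).

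SMAD4 carries signals of TGF-beta and BMP to the nucleus. Of 18 tested target genes of these signals, 0 were higher and 4 (22.2%) lower at an unadjusted p under 0.05, namely ID1, ID2, ID3 and TGFBR2, and the median log2 fold change was -0.14. ID1, an inhibitor of differentiation factors and a BMP target, stood at 119, 110.4, 88.0, 142 and 142 TPM in the TMPRSS2-high libraries and at 306, 159.8, 182, 157 and 148 TPM in the TMPRSS2-low ones. The groups did not overlap, with a log2 fold change of -0.72 ± 0.24 (SE), and Panc1 9 was far above the rest. ID2 was at 1.16 to 3.30 TPM against 3.34 to 9.59 TPM, also without overlap, and differed by -1.58 ± 0.41 (SE).

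AREG and EREG, ligands of the EGF receptor that lie close together on chromosome 4, were low except in 1 library. AREG stood at 0.0584, 0, 0.231, 0.0736 and 0.913 TPM in the TMPRSS2-high libraries and at 0.155, 0.897, 1.35, 1.25 and 28.8 TPM in the TMPRSS2-low ones, the last in BxPC3 18. The fitted log2 fold change was -4.74 ± 1.47 (SE), with an unadjusted edgeR p of 0.00760. EREG, looked up after AREG was seen, had 68.5 TPM in BxPC3 18 and at most 8.502 TPM in the other 4 TMPRSS2-low libraries. The rho of AREG with TMPRSS2 was -0.80 over the 14 libraries, which include the 10 compared and give no independent check.

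Of 19 tested NF-kB and inflammatory genes, 0 were higher, 2 (10.5%) lower at an unadjusted p under 0.05 and 15 negative. IL32, a proinflammatory cytokine, stood at 6.74, 6.63, 13.4, 7.07 and 6.91 TPM against 63.8, 17.8, 50.7, 39.1 and 10.99 TPM, with an overlap only between BxPC3 20 and BxPC3 18 and a log2 fold change of -2.21 ± 0.46 (SE). TRAF1, a signaling adaptor of the TNF receptors, differed by -0.85 ± 0.36 (SE). Of 35 interferon-stimulated genes, IFIT1 and TRIM22 were higher (5.71%) and ISG20, OAS2 and SAMD9 lower (8.57%). Of the 35, 24 had a negative log2 fold change, and the median was -0.20. IFIT1, a sensor of viral RNA, was at 4.21 to 10.5 TPM against 2.25 to 4.46 TPM.

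Of 24 hypoxia and glycolysis genes, ADM was higher (4.17%) and NDRG1 and GAPDH lower (8.33%) at an unadjusted p under 0.05. NDRG1, a stress-induced gene, stood at 1.18 to 2.94 TPM against 3.32 to 11.2 TPM, without overlap, and differed by -1.76 ± 0.43 (SE). ADM, the vasodilator peptide adrenomedullin, stood at 266, 268, 307, 321 and 221 TPM against 132, 116, 192, 121 and 135 TPM, without overlap, and differed by 0.96 ± 0.17 (SE). None of 20 unfolded protein and stress response genes, and none of 4 tested of 27 classical pancreatic genes, had an unadjusted p under 0.05. Of 8 tested squamous and basal genes KRT81 and AREG were lower.

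**Figure D5:**
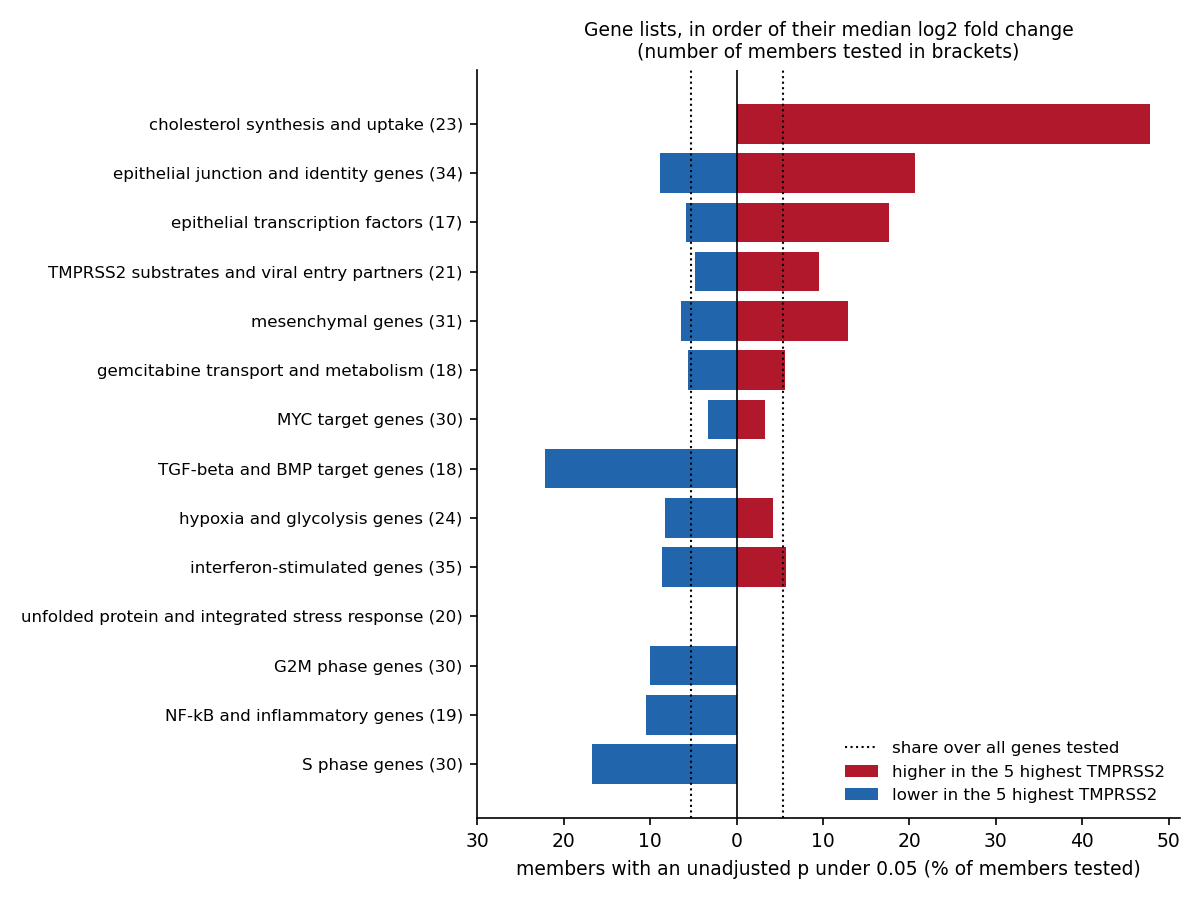
Share of tested members with an unadjusted p under 0.05, higher to the right and lower to the left of 0, for 14 of the lists with at least 15 members tested, in order of the median log2 fold change. Dotted lines give 5.35% and 5.22% over all genes tested, and cholesterol synthesis and uptake stands at 47.8% higher.

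Markers of immune, endothelial, fibroblast and epithelial cells were read in the same libraries. Of 13 immune markers 3 were tested, with 0 at an unadjusted p under 0.05. PTPRC, which marks leukocytes, stayed at or below 0.230 TPM, and 11 of the 13 stayed under 1 TPM in all 14 libraries. The summed level of this list, nearly all of it the lysosomal gene CD68, was 45.0 to 142 TPM in the TMPRSS2-high and 53.1 to 93.5 TPM in the TMPRSS2-low libraries. Of 11 endothelial and fibroblast markers 5 were tested, with 1, COL1A1, lower, and sums of 6.90 to 16.9 TPM against 8.36 to 41.1 TPM. Of 16 markers of the epithelial cells in the SMAD4-null libraries 8 were tested, with EPCAM and CLDN7 higher, and sums of 272 to 493.3 TPM against 131 to 551 TPM. RAB25, S100A14, LAD1 and KRT5 of that list stayed at or below 0.336 TPM in all 14 libraries and KRT6A was listed at 0. EPCAM stood at 9.26 to 25.5 TPM in the TMPRSS2-high libraries, and at 239 to 424 TPM in the SMAD4-null ones. In bulk RNA, fewer cells of a type and less RNA per cell cannot be told apart.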

How the data were processed

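Polyadenylated RNA of 26 SCDCLs was sequenced by a paired-end, stranded protocol, with 1 library each. Apart from the gemcitabine treatment label that every library carries, the labels name the line of each library and no other group. The authors quantified transcripts with kallisto 0.46.1 against Ensembl 103 (GRCh38). They deposited TPM and estimated counts per gene, which tximport derived from the TPM with length scaling, without normalization between libraries. Reads were not analysed here. The deposited table holds 41078 genes, of which 36315 matched GENCODE 44 by identifier.

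Libraries were ranked by TMPRSS2 TPM among those with at least 1 TPM of SMAD4. The members, gene lists and tests were chosen with earlier results of these data known. Estimated counts were rounded and fitted with edgeR 4.0.16 (R 4.3.3) by the quasi-likelihood test after filterByExpr and TMM normalization, on 5 against 5 libraries, leaving out TMPRSS2 and SMAD4. P-values were adjusted by Benjamini-Hochberg over all 15259 genes, at a threshold of 0.05. Of these, 1075 had no match in GENCODE 44 and 402 repeated the counts of another gene identifier. The biological coefficient of variation was 0.357. The smallest chi-square per degree of freedom between any 2 libraries was 48.5, so none was a repeat of another. Counting error limits the precision for genes of low expression.

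Spearman's and Pearson's correlations of log2(TPM + 1) were computed with numpy 2.4.6 and scipy 1.17.1 in Python 3.11.15, with pandas 2.3.3 for tables. Named genes were those within 1 Mb of TMPRSS2, the called genes, the 5 of smallest p in a direction with too few calls, the 5 highest and 5 lowest rho (each at 1 TPM or more), and list members at an unadjusted p under 0.05 or defining a list. The last part of this rule was written for called members, and edgeR's 5 against 5 fit called no list member. Alternatives were DESeq2 1.42.0, limma 3.58.1, other normalizations, filters, group sizes and units, the label as a covariate, TMPRSS2 as a linear term, and leaving out each library. Steps were tested on simulated data. The count of the cholesterol list, that of chromosome 11 and the unadjusted count were added as results after the data had been seen. Some genes that these rules name, 1 called gene and 1 gene list are not reported here.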

Additional observations from a re-analysis of the deposited data

Results flagged for a closer look

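In groups of 5 libraries, 23 of 256 groups of values held a library that stood apart from the other 4 by Dixon's criterion. Chance meets it in about 1 in 20 groups of normally distributed values. Here the values were TPM, the groups shared the same 10 libraries and many genes were named for their values. The 23 therefore cannot be set against that rate. BxPC3 23 and Panc1 9 held 4 each, as did Panc1 13.

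In BxPC3 23, of the TMPRSS2-low libraries, the outlying values were 3.25 TPM of TFF3, 99.3 TPM of S100A16, 79.0 TPM of BCL7C and 5.04 TPM of SERPINA3. Panc1 9 stood apart in the same group with 1.29 TPM of ST14, 13.6 TPM of SERPINE2, 306 TPM of ID1 and a low 159 TPM of SLC29A1. BxPC3 22 held 6.53 TPM of TRAF1, 17.4 TPM of GINS2 and 192 TPM of ADM. BxPC3 18 held 28.8 TPM of AREG and 68.5 TPM of EREG, where the other 4 held at most 1.35 and 8.502 TPM. Panc1 11 held 1.82 TPM of PRSS27.

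Among the TMPRSS2-high libraries, Panc1 13 stood apart with 34.7 TPM of CDH11, 145 TPM of TM7SF2, 740.4 TPM of FASN and 2.78 TPM of EREG. BxPC3 20 held 8.40 TPM of MX1, 13.4 TPM of IL32 and 206 TPM of SQLE. Panc1 14 held 3.63 TPM of SLC37A1, and BxPC3 17 held 4.86 TPM of SERPINE2.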

How the results depend on the processing

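Against 5 calls of edgeR, there were 164 with DESeq2 (5 shared), 3 with the label as a covariate (3 shared), 2 with 3 against 3 libraries (0 shared), 0 with 7 against 7, 8 with the rank of TMPRSS2 as a linear term (1 shared) and 73 with its log2(TPM + 1) (3 shared), and 0 to 4 when 1 library was left out. The causes were not tested. Limma-voom gave 4 calls and limma-trend on log2(TPM + 1) gave 6, and both other normalizations, both other filters and ranking by CPM gave 5, as did 4 against 4 libraries (3 shared). RGPD6 stayed called in 17 of 24 alternatives, TMEM135 in 11, STOM in 10 and SLC6A6 in 9, all with a positive log2 fold change. Genes at an unadjusted p under 0.05 numbered 1070 with 3 against 3 libraries, 2284 with log2(TPM + 1) of TMPRSS2 and 1294 to 1757 with 1 library left out, against 1613. Cholesterol genes higher at that p numbered 3 to 12 over the alternatives, being 4 with 4 against 4 libraries, 3 with 3 against 3 and 7 with either linear term, and 7 to 13 with 1 library left out. On chromosome 11 there were 76 with 7 against 7 libraries and 226 with log2(TPM + 1) of TMPRSS2, and 77 to 187 with 1 library left out. No gene correlated with TMPRSS2 at an adjusted permutation p under 0.05 with log2(CPM + 1), without Panc1 14 and Panc1 8 or with any 1 left out. These correlations have the same floor of 1e-05 for the permutation p, at which 1 gene alone cannot pass. Within 7 libraries of 1 label the permutation p is too coarse for 1 gene alone to pass over all genes. In either label 0 genes passed, and 1185 (BxPC3) and 777 (Panc1) genes had an unadjusted p under 0.05. No paired analysis was possible because library numbers do not pair SCDCLs between the groups. With 5 against 5 libraries the exact permutation p of a single gene cannot go below 0.00794. Genes under the filter on low counts, such as most other membrane-anchored proteases, were not tested.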
